A study of Arabidopsis thaliana with 4 samples.

Results

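GH3 and DAO enzymes take auxin out of the active pool, and 10 of their genes were followed in shoot apices of Arabidopsis thaliana plants that lack CLV3 function, with and without a further mutation in MP. The members were chosen by gene identifier and comprise 8 GH3 genes and 2 DAO genes, out of 27322 genes in the table, and all 10 were measured. The GH3 members are GH3.1 (AT2G14960), GH3.2 (AT4G37390), GH3.3 (AT2G23170), GH3.4 (AT1G59500), GH3.5 (AT4G27260), GH3.6 (AT5G54510), GH3.9 (AT2G47750) and GH3.17 (AT1G28130). The DAO members are DAO1 (AT1G14130) and DAO2 (AT1G14120). Apices were taken from inflorescences of 6-week-old plants, after older flowers had been removed, from the genotypes labelled clv3 and mp clv3, with 2 libraries each. Both genotypes carry the clv3 mutation. The growth description gives the double mutant as mp319 clv3-7 but names Col-0, the wild-type accession, for the other plants, and the genotype labels are followed here. Values come as 1 column of reads per genotype, 100328819 for clv3 and 103347441 for mp clv3, so no spread between libraries is known and no difference below has a replicate check.

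Auxin (indole-3-acetic acid) is inactivated in plants mainly by joining it to amino acids and by oxidising it. GH3 proteins are acyl acid amido synthetases that make the amino acid conjugates, and DAO proteins are dioxygenases that produce the oxidised forms. Several GH3 genes are early auxin response genes, since auxin response factors such as MP (MONOPTEROS, ARF5) act on promoters through auxin response elements built on the bases TGTC, and the enzymes made then lower the auxin level. CLV3 encodes the secreted peptide that limits the stem cell population of the shoot apex.

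The promoters of 4 GH3 genes are shown because these genes cover the main responses, with GH3.2 and GH3.3 far lower in mp clv3, GH3.6 far higher and GH3.5 at nearly the same level. Each run is the 250 bases before the RefSeq gene start, 5′ to 3′ on the gene's own strand in the TAIR10.1 build, and capitals mark every match to TGTCNN on either strand, so that a match on the other strand reads NNGACA. The windows are chr4:17579368-17579617 on the plus strand for GH3.2, chr2:9866563-9866812 on the minus strand for GH3.3, chr4:13653329-13653578 on the plus strand for GH3.5 and chr5:22133689-22133938 on the minus strand for GH3.6.
GH3.2: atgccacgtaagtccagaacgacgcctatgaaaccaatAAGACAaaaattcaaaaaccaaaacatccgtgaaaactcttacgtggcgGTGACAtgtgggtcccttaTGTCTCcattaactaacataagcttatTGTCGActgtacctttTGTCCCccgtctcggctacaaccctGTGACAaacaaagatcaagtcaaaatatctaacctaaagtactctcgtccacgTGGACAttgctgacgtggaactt
GH3.3: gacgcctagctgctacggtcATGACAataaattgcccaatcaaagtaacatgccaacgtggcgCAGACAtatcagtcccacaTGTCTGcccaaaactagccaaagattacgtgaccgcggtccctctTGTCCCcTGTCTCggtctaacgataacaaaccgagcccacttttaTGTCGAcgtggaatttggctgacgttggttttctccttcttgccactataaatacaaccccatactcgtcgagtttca
GH3.5: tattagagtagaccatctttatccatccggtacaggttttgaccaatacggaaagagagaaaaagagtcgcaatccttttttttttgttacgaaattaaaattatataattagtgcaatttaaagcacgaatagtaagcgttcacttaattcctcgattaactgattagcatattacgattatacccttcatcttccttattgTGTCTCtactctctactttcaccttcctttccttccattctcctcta
GH3.6: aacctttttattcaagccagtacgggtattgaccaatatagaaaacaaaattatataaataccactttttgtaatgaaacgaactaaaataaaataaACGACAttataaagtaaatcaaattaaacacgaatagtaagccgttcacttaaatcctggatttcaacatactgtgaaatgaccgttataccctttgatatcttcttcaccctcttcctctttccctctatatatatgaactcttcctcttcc

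GH3.2 had 7 matches to TGTCNN in this window and GH3.3 had 6, more than any other member. Among the 27443 protein-coding promoters of the same length, 0.164% held at least 7 matches and 0.612% at least 6, while 74.5% held at least 1. GH3.9 had 3 matches, GH3.1 had 2, GH3.4 had 0, and GH3.5, GH3.6, GH3.17, DAO1 and DAO2 had 1 each. The canonical form TGTCTC, which also counts as a TGTCNN match, occurred once each in GH3.2, GH3.3 and GH3.5, against 10.9% of all promoters. The form TGTCGG, preferred by auxin response factors in vitro, occurred in 0 of the 10 windows and in 4.16% of all promoters. These matches describe letters in the windows and are not evidence of binding, and gene starts in the annotation used for the counts may differ from those of RefSeq. For GH3.4 the annotated gene starts at its start codon, so its window lies next to the coding sequence. The windows of GH3.9 and DAO1 overlap other annotated genes, AT2G09955 and AT1G14140 (UCP3), so matches there may lie within those genes.

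**Figure D1:**
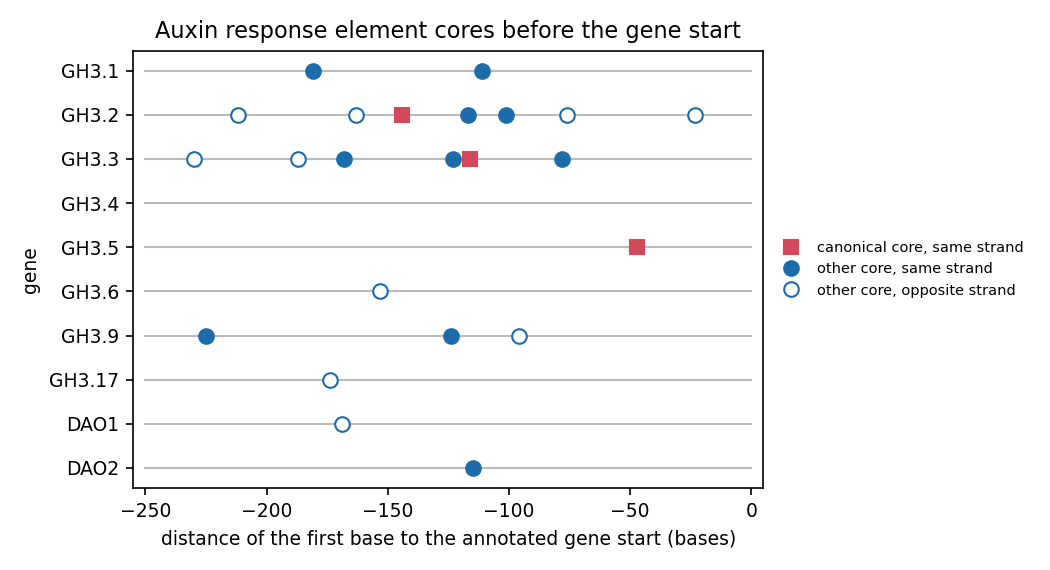
Position of TGTCNN matches in the 250 bases before the gene start of each member; the x axis is the distance of the match's first base to the start in bases, squares are the canonical form TGTCTC, circles other matches, filled on the gene's strand and open on the opposite strand. GH3.2 carries 7 matches and GH3.3 carries 6, while the other members carry from 0 to 3.

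In mp clv3, GH3.6 was 6.84-fold higher than in clv3 while GH3.2 and GH3.3 were 15.1-fold and 14.5-fold lower, and GH3.9 was 3.01-fold lower. GH3.5, the closest relative of GH3.6 among the members, had 49.6 and 50.1 RPKM (reads relative to the length of the gene model and to all reads of the column). DAO1 was 1.52-fold and DAO2 2.83-fold higher. By the false discovery rate (FDR) of the authors' deposited table at a threshold of 0.05, 5 of the 10 members were higher, 4 were lower and GH3.5 was not called. Over all genes in the authors' deposited table, 26.4% were higher and 46.3% lower, 72.7% in all, so 9 calls in 10 members are close to the background. At least 2-fold, 2 members were higher against 8.87% of all genes and 3 were lower against 16.7%, or 5 members against 25.6% in either direction, with counts under 6 reads raised to 6 before the ratio was taken. The median log2 ratio over the 10 members was 0.22, and over all genes -0.11. Which test gave that FDR is not given in the sources used here. Over the 18832 genes that averaged 100 or more reads the median log2 ratio was -0.12. Every called member other than GH3.4 kept its direction relative to that median. The log2 ratio of GH3.4 was -3.63 as deposited. With its 0 reads in mp clv3 raised to 6 it was -0.04, above that median.

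GH3.6, also called DFL1 after the short hypocotyl of plants that overproduce it, conjugates auxin to amino acids. Its reads numbered 4360 (19.9 RPKM) in clv3 against 30741 (136 RPKM) in mp clv3. The 95% interval of its ratio from read counting was 6.54 to 7.16. In mp clv3 it stood at percentile 96.9 of all genes by RPKM, against 71.5 in clv3. GH3.5 (WES1 in the reference), which can act on auxin and on salicylic acid, stood at 11186 reads in clv3 and 11634 in mp clv3. Its ratio was 1.01 with an interval from 0.973 to 1.05, and its FDR in the authors' deposited table was 0.50. With the median of genes averaging 100 or more reads set to 0, its log2 ratio became 0.14, and an exact binomial test on read pairs with Benjamini-Hochberg adjustment over all genes, which compares the columns and not the genotypes, then gave an adjusted p of 1.3e-06. GH3.5 was thus within counting error of equal levels relative to the column totals and slightly above the median gene. In clv3 GH3.5 had 2.49 times the RPKM of GH3.6, and in mp clv3 GH3.6 had 2.72 times that of GH3.5.

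GH3.2, whose RefSeq symbol is BRU6, and GH3.3 are auxin amido synthetases whose transcripts rise quickly with auxin in seedlings, and both fell to nearly the same degree. GH3.2 went from 3011 reads (14.1 RPKM) in clv3 to 206 reads (0.935 RPKM) in mp clv3, with an interval of the fold from 12.3 to 18.6. GH3.3 went from 3260 reads (15.3 RPKM) to 232 reads (1.06 RPKM), with an interval from 12.0 to 17.6. The intervals of both folds overlap along most of their length, and the level of GH3.3 over that of GH3.2 was 1.09 in clv3 and 1.13 in mp clv3. With a pseudocount of 1 RPKM, near their level in mp clv3, the log2 ratio of GH3.2 became -2.96 in place of -3.91 and that of GH3.3 -2.99 in place of -3.86. Reads on both genes remained in mp clv3. GH3.2 and GH3.3 have the most TGTCNN matches among the members, 7 and 6. GH3.9, which was lower, has 3, GH3.1, which was higher, has 2, and GH3.4, at the floor, has 0. The other members have 1 each, among them the higher GH3.6, GH3.17, DAO1 and DAO2 and the level GH3.5, whose match is TGTCTC. Whether matches and changes are linked was not tested.

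GH3.4, the closest relative of GH3.2, was barely detected, with 6 reads in clv3 against 0 in mp clv3. That is at the floor of 3 read pairs, which corresponds to 0.0333 RPKM in the clv3 column and 0.0324 RPKM in the other, so no fold is given. The authors' deposited table lists it with an FDR of 0.0236, and the exact binomial test on read pairs gave an adjusted p of 0.32. GH3.1, another auxin amido synthetase, was counted with 54 reads (0.261 RPKM) in clv3 against 96 reads (0.451 RPKM) in mp clv3. Its ratio was 1.73 (interval 1.06 to 2.88). Its adjusted p was 0.0444 in the exact binomial test on read pairs, against an FDR of 0.0014 in the authors' deposited table. Its log2 ratio of 0.79 became 0.20 with a pseudocount of 1 RPKM and 1.88 with quantile normalization. Both genes were low in both genotypes.

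GH3.9, a GH3 gene linked to root growth, went from 1361 reads (6.29 RPKM) to 466 reads (2.09 RPKM) in mp clv3. The interval of its 3.01-fold drop was 2.59 to 3.5. A long noncoding RNA gene, AT2G09955, overlaps it on the opposite strand in the RefSeq annotation, and whether strand was used in counting is not stated in the labels, and reads of both cannot be told apart. GH3.17, which prefers glutamate as the amino acid, went from 609 reads (2.81 RPKM) to 841 reads (3.77 RPKM) in mp clv3. That is 1.34-fold more (interval 1.15 to 1.56). GH3.17 and GH3.9 thus went in opposite directions, and by level they changed places, with GH3.9 above GH3.17 in clv3 and below it in mp clv3.

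DAO1, the main auxin oxidase gene of seedlings, rose from 1450 reads (10.3 RPKM) in clv3 to 2271 reads (15.7 RPKM) in mp clv3. Its ratio of 1.52 had an interval from 1.38 to 1.67. DAO2, its neighbour on chromosome 1 on the same strand, rose from 24 reads (0.201 RPKM) to 70 reads (0.569 RPKM). Its ratio of 2.83 carried an interval from 1.44 to 5.99, and its log2 ratio became 0.39 with a pseudocount of 1 RPKM and 2.58 with quantile normalization. DAO1 was 51.4 times the level of DAO2 in clv3 and 27.6 times in mp clv3. Both genes were higher in mp clv3, and the wide interval of DAO2 includes the ratio of DAO1.

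**Figure D2:**
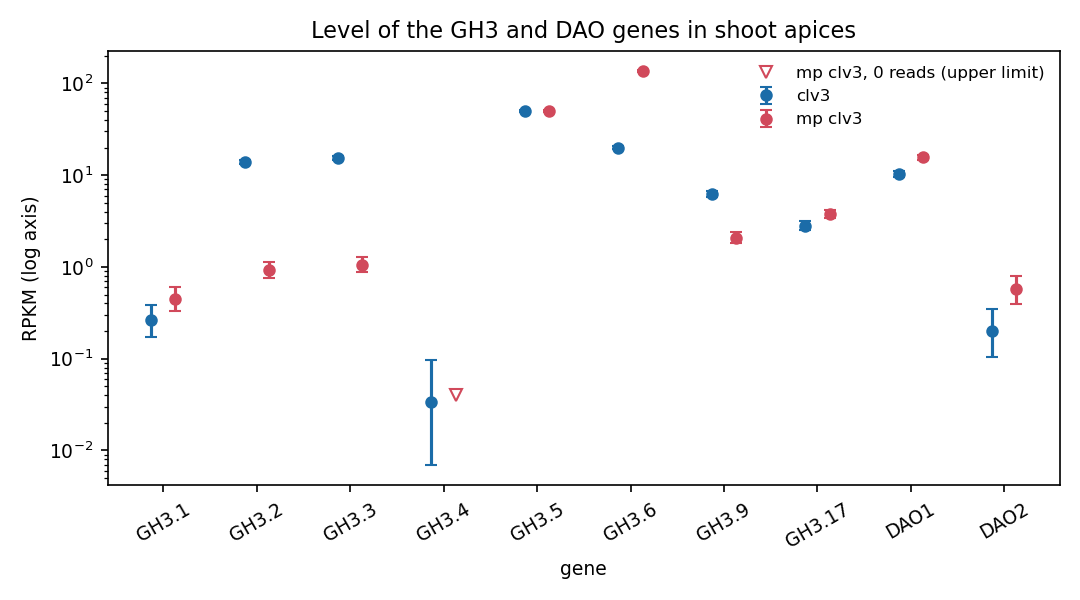
RPKM of each member in clv3 (blue) and mp clv3 (red) on a log axis, 1 value per genotype, with bars for the 95% counting interval on read pairs; the open triangle is the upper limit for GH3.4, which had 0 reads in mp clv3. GH3.6 lies highest at 136 RPKM in mp clv3, GH3.5 is level, and GH3.2 and GH3.3 drop from 14.1 and 15.3 RPKM to about 1 RPKM.

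**Figure D3:**
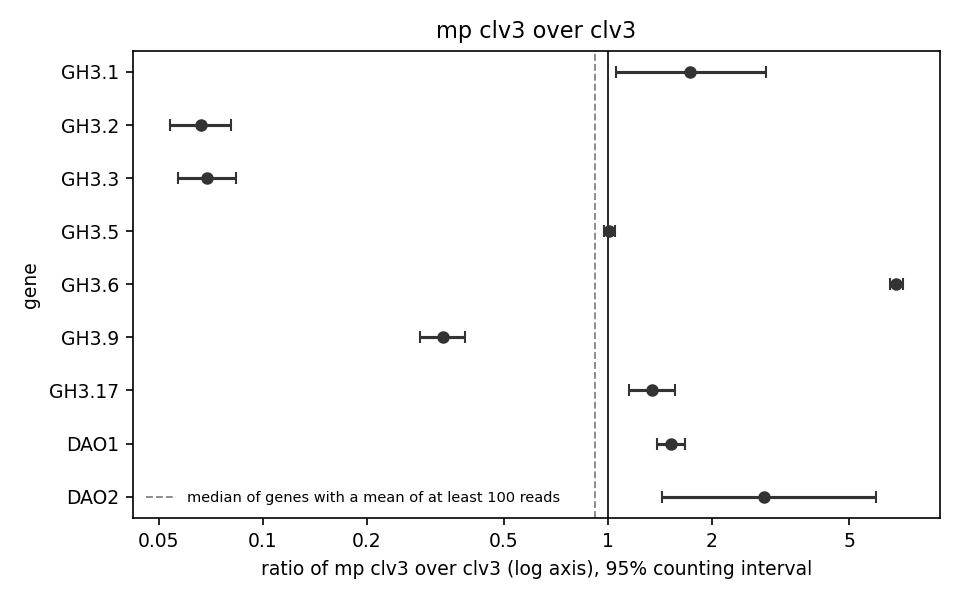
Ratio of mp clv3 over clv3 on a log axis for the 9 members with reads in both columns, with 95% counting intervals that hold no spread between plants; the solid line is a ratio of 1 and the dashed line the median of genes averaging 100 or more reads. The ratio of GH3.6 is 6.84, those of GH3.2, GH3.3 and GH3.9 lie below 1, and the interval of GH3.5 spans 1.

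The level order of the members differed between the genotypes. In clv3, RPKM fell from GH3.5 (49.6) over GH3.6 (19.9), GH3.3 (15.3), GH3.2 (14.1), DAO1 (10.3), GH3.9 (6.29) and GH3.17 (2.81) to GH3.1 (0.261), DAO2 (0.201) and GH3.4 (0.0333). Of the neighbours in this order, GH3.3 and GH3.2, and GH3.1 and DAO2, had overlapping counting intervals. In mp clv3 the order was GH3.6 (136), GH3.5 (50.1), DAO1 (15.7), GH3.17 (3.77), GH3.9 (2.09), GH3.3 (1.06), GH3.2 (0.935), DAO2 (0.569), GH3.1 (0.451) and GH3.4 with 0 reads. There the intervals of GH3.3 and GH3.2, of GH3.2 and DAO2, and of DAO2 and GH3.1 overlapped. The gene model lengths behind the deposited RPKM, 1190 to 2246 bases for the members, equal those of a RefSeq transcript in 23.5% of genes, and RPKM from RefSeq exon lengths gave the same order in both genotypes.

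Summed over the 8 GH3 genes, the level came to 108.4 RPKM in clv3 against 195 RPKM in mp clv3, a ratio of 1.8 with a counting interval from 1.76 to 1.84. GH3.6 made up 18.4% of this sum in clv3 and 70.0% in mp clv3. GH3.5 gave 45.8% and 25.7%, and GH3.2 with GH3.3 gave 27.1% and 1.02%. Without GH3.6 the sum was 88.5 against 58.4 RPKM, 1.51-fold lower. Without GH3.5 and GH3.6 it was 38.8 and 8.31 RPKM, 4.67-fold lower. The higher sum in mp clv3 therefore rests on GH3.6. RPKM sums weigh transcripts alike and say nothing of enzyme activity.

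**Figure D4:**
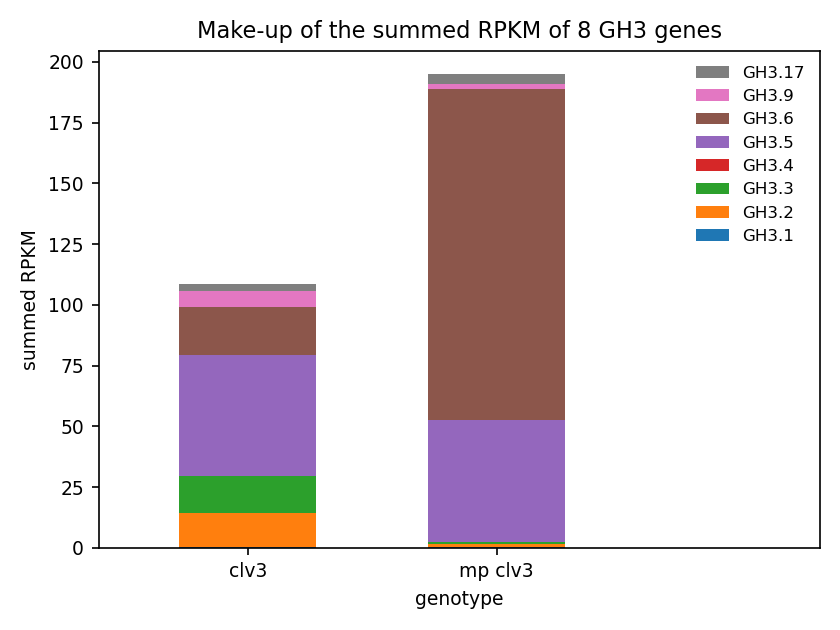
Summed RPKM of the 8 GH3 genes in clv3 and mp clv3, stacked by gene, with 1 value per gene and genotype. The sum is 108.4 RPKM in clv3 against 195 RPKM in mp clv3, where GH3.6 alone makes up 70.0%.

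Close relatives among the members did not always move together. Over the coding bases, GH3.2 was 81.4% identical to GH3.3 and 90.9% to GH3.4, and GH3.5 was 84.1% identical to GH3.6. All other GH3 pairs lay between 60.2% and 79.1%, and DAO1 and DAO2 were 83.1% identical. The related pair GH3.2 and GH3.3 had similar ratios, whereas GH3.5 and GH3.6 did not, with intervals from 0.973 to 1.05 and from 6.54 to 7.16. No window of 100 bases, the read length, in the RefSeq transcript of any member occurred unchanged elsewhere in the genome. Windows of 50 bases did so only in GH3.2 and GH3.4, at 23 each, or 1.08% and 1.32% of their windows. How reads that match several genes were counted is not stated in the labels either, and the 6 reads on GH3.4 may not be fully separated from those on GH3.2.

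**Figure D5:**
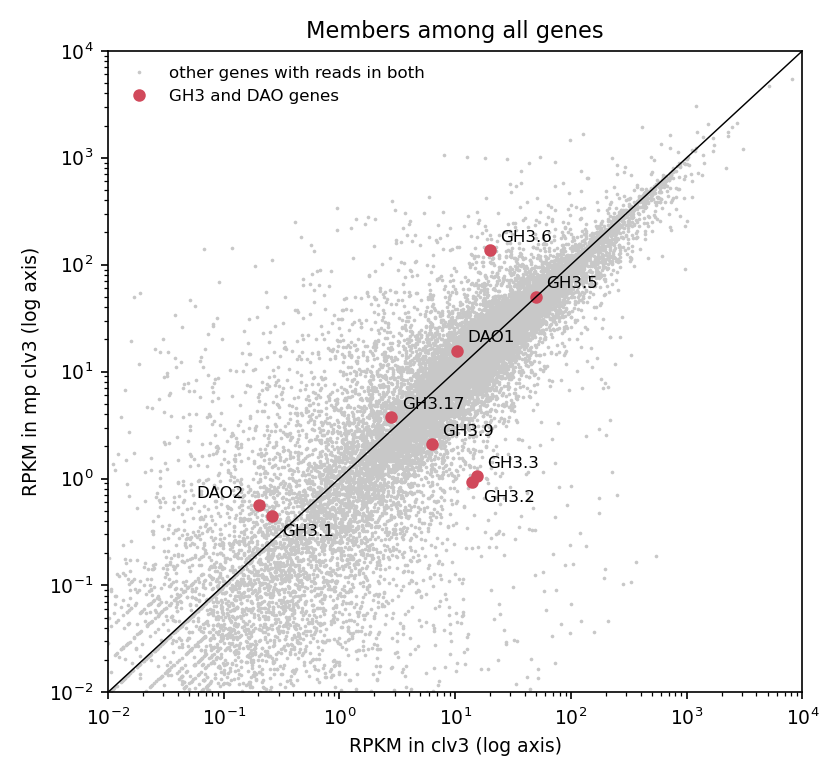
RPKM in mp clv3 against RPKM in clv3, both on log axes, for genes with reads in both columns (grey) and for the 9 members among them (red); the line marks equal levels. GH3.6 lies above the line, GH3.2, GH3.3 and GH3.9 below it, and GH3.5 on it.

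The mutated genes and marker genes were read beside these values. MP showed 25336 reads in clv3 against 5063 in mp clv3, so reads on it remained, and CLV3, mutated in both genotypes by the labels, had 110 and 1278. Of 4 meristem markers, STM, WUS and CLV1 were higher and KNAT1 lower in mp clv3, with summed levels of 168 and 291 RPKM in clv3 and mp clv3. All 6 measured floral organ markers were lower, with sums of 437 and 2.15 RPKM, and all 8 tapetum and pollen wall markers were lower, with sums of 710 and 13.6 RPKM, MS2 and DYT1 being at 0 reads in mp clv3. Of 3 root markers, RHD6 and CASP1 had 0 reads in both genotypes and PYK10 had 0.221 and 1.25 RPKM. The part of this difference in floral tissue in the differences of the GH3 and DAO genes was not tested, and in whole apices fewer cells of a type and less RNA per cell cannot be told apart.

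Other lists held 11 further GH3 genes, 7 auxin conjugate hydrolases and 7 genes of glucosylation and methylation, some of which restore auxin. Together, 9 were higher and 12 lower by the authors' FDR, against 26.4% and 46.3% of all genes. At least 2-fold, 5 were higher and 8 lower, against 8.87% and 16.7% of all genes. Auxin conjugate hydrolases are a family with members that free auxin again from its amino acid conjugates, and what each listed gene acts on was not tested. Of 7 in the list, 3 were higher, 3 lower and ILL5 was not called in the authors' deposited table. Over all genes there, 26.4% were higher and 46.3% lower, 72.7% in all. With median or TMM scaling the split was 4 higher and 2 lower, since ILL1 changed sign while the authors' FDR was kept. ILL1 had a log2 ratio of -0.068 and an FDR of 0.035 in the authors' deposited table. In the exact binomial test on read pairs its adjusted p was 0.179. That test gave 3 higher and 2 lower, with or without median scaling. ILL6 rose 5.16-fold, from 5.86 RPKM in clv3 to 30.3 RPKM in mp clv3 (interval 4.73 to 5.65). IAR3, which hydrolyses the alanine conjugate, had 26.3 and 73.1 RPKM, a 2.78-fold rise (interval 2.65 to 2.92). ILL3 was 2.06-fold lower, with 843 and 421 reads (interval 1.75 to 2.45). Its log2 ratio of -1.04 became -0.92 with median scaling, -0.90 with TMM scaling and -0.78 with quantile normalization, each under 2-fold. Summed over the 7 hydrolases, the level was 90.8 RPKM in clv3 against 155 RPKM in mp clv3. This sum says nothing of enzyme activity or of how much auxin is released.

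Among 7 genes of glucosylation and methylation, 2 were higher and 3 lower by the authors' deposited table, and UGT84B1 and UGT84B2 had 0 reads in both genotypes. That count is near the 72.7% called over all genes. At least 2-fold, 2 were higher and 3 lower, against 8.87% and 16.7% of all genes. UGT74E2, which joins glucose to the auxin precursor indole-3-butyric acid, rose 5.17-fold, from 594 to 3164 reads (interval 4.57 to 5.87). UGT74D1, the other higher gene, rose 2.67-fold, from 1675 to 4614 reads (interval 2.47 to 2.90), and was named after its values were seen. IAMT1, which methylates auxin, had 6.22 and 0.687 RPKM, 9.06-fold lower with an interval from 6.77 to 12.6, or a log2 ratio of -2.10 with a pseudocount of 1 RPKM. MES17, an esterase that hydrolyses methylated auxin, had 24.9 and 8.78 RPKM, 2.84-fold lower. The methylation gene and the demethylation gene were thus both lower. UGT76F1, which glucosylates an auxin precursor, had 210 and 20 reads.

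Of the 11 GH3 genes outside the member list, many of which act on other acyl acids, 4 were higher, 6 lower and GH3.13 not called in the authors' deposited table, against 26.4% higher and 46.3% lower over all genes. The 6 lower became 4 in the exact binomial test on read pairs, where GH3.8 and GH3.19 had adjusted p of 0.169 and 0.167, and 2 when a mean of at least 100 reads or 1 RPKM in the higher column was asked for. GH3.15, which acts on indole-3-butyric acid, rose 18.9-fold, from 0.837 to 15.8 RPKM (interval 15.2 to 23.6), a log2 ratio of 4.24, or 3.192 with a pseudocount of 1 RPKM. GH3.16 went the other way, from 2120 reads (10.4 RPKM) in clv3 to 4 reads in mp clv3. Those 4 reads are 2 read pairs, under the floor of 3, so the size of the drop is poorly fixed, with a counting interval from 151-fold to 4514-fold. Its log2 ratio was -8.51 with the 4 reads raised to the floor and -3.48 with a pseudocount of 1 RPKM. JAR1, which makes the active jasmonate conjugate, was 1.39-fold higher, and PBS3, needed for salicylic acid synthesis, was 1.76-fold higher. GH3.10 was 1.59-fold lower, with 2407 reads in clv3 against 1556 in mp clv3 (interval 1.45 to 1.75). JAR1, PBS3 and GH3.10 were chosen after their values were seen.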

How the data were processed

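Poly(A) RNA of 4 libraries (2 of clv3, 2 of mp clv3) was sequenced as read pairs of 100 bases, per the labels' protocols. CASAVA 1.7, BWA and TAIR10 are named in the submitters' processing notes. The authors deposited 1 column of counts per genotype, treated here as estimated counts since genes without reads carry 0.5, which was read as 0. How libraries were combined is not stated. The RPKM (reads relative to gene model length and all reads of a column), the log2 ratio and the FDR (an adjusted p-value) are the authors' own, per the file headers. Of 27323 rows, 1 had other content and was left out.

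The planned edgeR test needs a column per library and was not possible. Calls use the authors' FDR under 0.05. Low counts were mostly even (83.3% of values from 1 to 9 in clv3), so 2 reads were taken as a pair. Ratios were scaled to column totals, and their exact Clopper-Pearson intervals, at 95%, and the floor of 3 pairs use pairs and cover counting error only. Level intervals are exact Poisson, and that of the GH3 sum uses a normal approximation on the log scale. The exact binomial test was two-sided, doubling the smaller tail, and was tested on simulated counts.

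Sequences and gene symbols came from RefSeq TAIR10.1, which matched 26643 of 27322 identifiers. Coding bases were aligned globally (match 2, mismatch -1, gap opening -5, extension -0.5), in place of the protein comparison first planned. All members, MP and CLV3 were named, and of each other list up to 4 genes at least 2-fold apart with at least 100 reads in the higher column. Other names were chosen after values were seen. The members and lists were chosen with earlier results of these data known. AG, of the floral markers, was not analysed here. Alternatives were median, TMM (edgeR 4.0.16, R 4.3.3) and quantile scaling, pseudocounts, filters, other thresholds and the exact test. Python 3.11.15, scipy 1.17.1, pandas 2.3.3 and Biopython 1.88 were used.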

Additional observations from a re-analysis of the deposited data

How the results depend on the processing

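No paired analysis was possible because the table holds 1 value per gene and genotype, which also means that no library could be left out. Median scaling and TMM scaling turned no member's direction, and quantile normalization turned that of GH3.5, which was not called, to a log2 ratio of -0.013. Quantile normalization took the log2 ratio of GH3.1 to 1.88 and of DAO2 to 2.58 (the cause was not tested). A pseudocount of 1 RPKM, which shrinks ratios of low genes, gave -2.96 for GH3.2, -2.99 for GH3.3, 0.20 for GH3.1 and 0.39 for DAO2. GH3 genes of other clades that were lower numbered 6, and 2 with either filter on low values. The call of GH3.4 was lost at an FDR under 0.01 and in both exact tests on read pairs, of which the test with median scaling was chosen after the data were seen, like the RefSeq lengths. Members higher in mp clv3 were 5, and 3 with a mean of at least 100 reads or a minimum of 1 RPKM in the higher column, as both filters remove GH3.1 and DAO2. Members at least 2-fold higher were 2, and 1 with a pseudocount of 1 RPKM, with either filter or at 4-fold, and 4 at 1.5-fold. Of the 25 other genes, 8 were at least 2-fold lower. They numbered 4 with a pseudocount of 1 RPKM or at 4-fold, 5 with either filter and 6 with median, TMM or quantile scaling. Those at least 2-fold higher were 5, and 7 with quantile normalization and 3 at 4-fold. All genes at least 2-fold apart were 6993, and 3932 with a pseudocount of 1 RPKM, 4452 with a mean of at least 100 reads and 3420 at 4-fold. The ratio of the GH3 sum was 1.96 with median and 1.99 with TMM scaling. Of 94 alternative values of single members, 89 kept direction and side of the threshold. Most could not change the call, since the scalings, pseudocounts and filters kept the authors' FDR.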

Other observations

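GH3.13, GH3.14, GH3.15 and GH3.16 lie next to each other on chromosome 5 on the same strand, with 0 protein-coding genes between neighbours, and PBS3 lies 2 protein-coding genes before GH3.13. Within this row, GH3.14 was 1.75-fold higher in mp clv3 (438 and 789 reads in clv3 and mp clv3), GH3.15 was 18.9-fold higher and GH3.16, the next gene, went from 2120 reads to 4. GH3.13 had 8 and 2 reads and was not called in the authors' deposited table. GH3.15 and GH3.16 were 86.7% identical over their coding bases, and GH3.14 and GH3.15 were 89.4% identical. Windows of 100 bases of their transcripts had 0 exact copies elsewhere in the genome, and windows of 50 bases had copies in 1.97% of cases for GH3.15 and 0.252% for GH3.16. GH3.14 was chosen after its values were seen.

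Of the 18 genes directly beside a member in the table that are not members themselves, 2 were higher, 8 lower and 8 not called in the authors' deposited table, against 26.4% higher and 46.3% lower over all genes. The 2 higher were FQR1, a quinone reductase gene beside GH3.6, with 36.7 and 74.6 RPKM in clv3 and mp clv3, and ALG3 beside GH3.9, with 15.5 and 20.8 RPKM. ALG3 was thus higher where GH3.9 was lower. Both neighbours of GH3.3 were lower, CYP96A1, a cytochrome P450 gene, with 810 and 16 reads and AT2G23160 with 62 and 0. AT4G27250, beside GH3.5, went from 248 reads to 2 while GH3.5 stayed level. Both neighbours of GH3.4 were lower, AT1G59453 with 101 and 42 reads and CF9 with 673 and 366. The other lower neighbours were AT2G15000 beside GH3.1, with 4274 and 2955 reads, AT4G37380 beside GH3.2, with 913 and 555, and AT1G28120 beside GH3.17, with 4014 and 3630. Not called were LCR40, CYP81F3, AT4G27270, AT5G54520, AT2G47720, AT1G28135, UCP3 and FUT9.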
